A study of Mus musculus with 8 samples.

Results

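The Frizzled receptors are a family of Wnt receptors at the cell surface, and all 10 of them, Fzd1 to Fzd10, were examined here by their gene symbols among the 18770 genes measured. Messenger RNA was sequenced from the dorsal skin of mice at day 4 after depilation, in 4 libraries treated with alpinetin (AP), a plant flavonoid, and 4 treated with vehicle (VC). The comparison addressed how AP acts on skin that is re-entering the hair growth phase. All mice were wildtype C57BL/6 of 7-8 wk. The methods of the study write the strain as C57BL/6J and state that only males were used. Both groups had hair plucked from the back and received 20 µl of 65% ethanol on the skin once a day, which carried 3 mg/ml AP in the AP group and nothing else in the VC group. As the study describes it, the interfollicular epidermis was taken off before RNA extraction, to leave dermis with its hair follicles, yet transcripts of suprabasal epidermal keratinocytes such as Krt10 were present in all libraries and higher in AP.

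Frizzled proteins bind secreted Wnt ligands through a cysteine-rich domain outside the cell and pass the signal to Dishevelled proteins inside it. With the co-receptors Lrp5 and Lrp6 they stabilise β-catenin, which drives target genes together with Lef1 and Tcf factors, and with other partners they steer cell polarity and movement. In the hair follicle, Wnt signaling is known to be needed for placode formation, for the onset of the growth phase and for the hair shaft lineage, and planar polarity signaling through Fzd3 and Fzd6 is known to set the orientation of hairs.

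The values are normalized counts, which are reads per gene divided by a size factor for each library. The VC libraries held 7264151, 6833615, 6479827 and 6454563 reads on the listed genes and the AP libraries 8507783, 10853773, 11190113 and 8863517, in the order 1 to 4. The mitochondrially encoded genes took 54.3, 44.9, 42.1 and 52.3% of the reads in VC 1 to VC 4 and 11.1, 7.85, 5.32 and 10.3% in AP 1 to AP 4. All AP libraries were thus deeper and lower in mitochondrial reads than all VC libraries, and the mitochondrial share differed with the smallest p that 4 against 4 libraries allow (exact permutation test, two-sided p = 0.0286). In a fit with non-mitochondrial reads drawn down to 1 depth, the median log2 fold change was 0.86 over the receptors and 0.03 over all genes. With scaling by total counts outside mitochondrial genes these medians were 0.96 and 0.10. Beyond such alternatives, the part of depth and mitochondrial share in the results on the receptors was not tested. The table columns could not be tied to individual mice, so p-values measure the spread between these libraries. Since whole tissue was measured, fewer cells that express a receptor and less RNA per cell cannot be told apart.

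Summed over the family, Frizzled mRNA was higher in every AP library than in every VC library. The 10 receptors together had 422, 414, 478 and 289 normalized counts per kb of exon in VC 1 to VC 4 and 584, 695, 785 and 563 in AP 1 to AP 4. The group means were 401 ± 79.8 (SD, n = 4) and 657 ± 103, a ratio of 1.64. Divided by length or not, the ranges of the groups did not overlap.

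All 10 receptors passed the filter of at least 3 normalized counts in at least 4 libraries, and 2 of them, Fzd1 and Fzd4, rose at an adjusted p under 0.05 (limma on log2(normalized count + 1), Benjamini-Hochberg adjustment over 15964 genes). Among all genes tested, 6.33% were called higher and 4% were called lower, and 0 receptors were called lower by limma, edgeR or DESeq2. Without VC 1, VC 4, AP 2 or AP 3 the count of receptors called higher was 0, and without VC 3 it was 1. At an unadjusted p under 0.05, 5 receptors were higher, Fzd1, Fzd4, Fzd5, Fzd6 and Fzd10, beside 17% of all tested genes, and none was lower. The log2 fold change was above 0 for 9 of the 10 receptors and for 53.5% of all tested genes. The median over the 10 receptors was 0.92, beside 0.06 over all tested genes. Only for Fzd6 were all AP libraries above all VC libraries, as for 10.3% of all tested genes. When libraries were scaled by total counts, mitochondrial reads included, the median of all genes moved to 0.90 and that of the receptors to 1.79, so changes under that scaling are to be read relative to that shift.

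**Figure D1:**
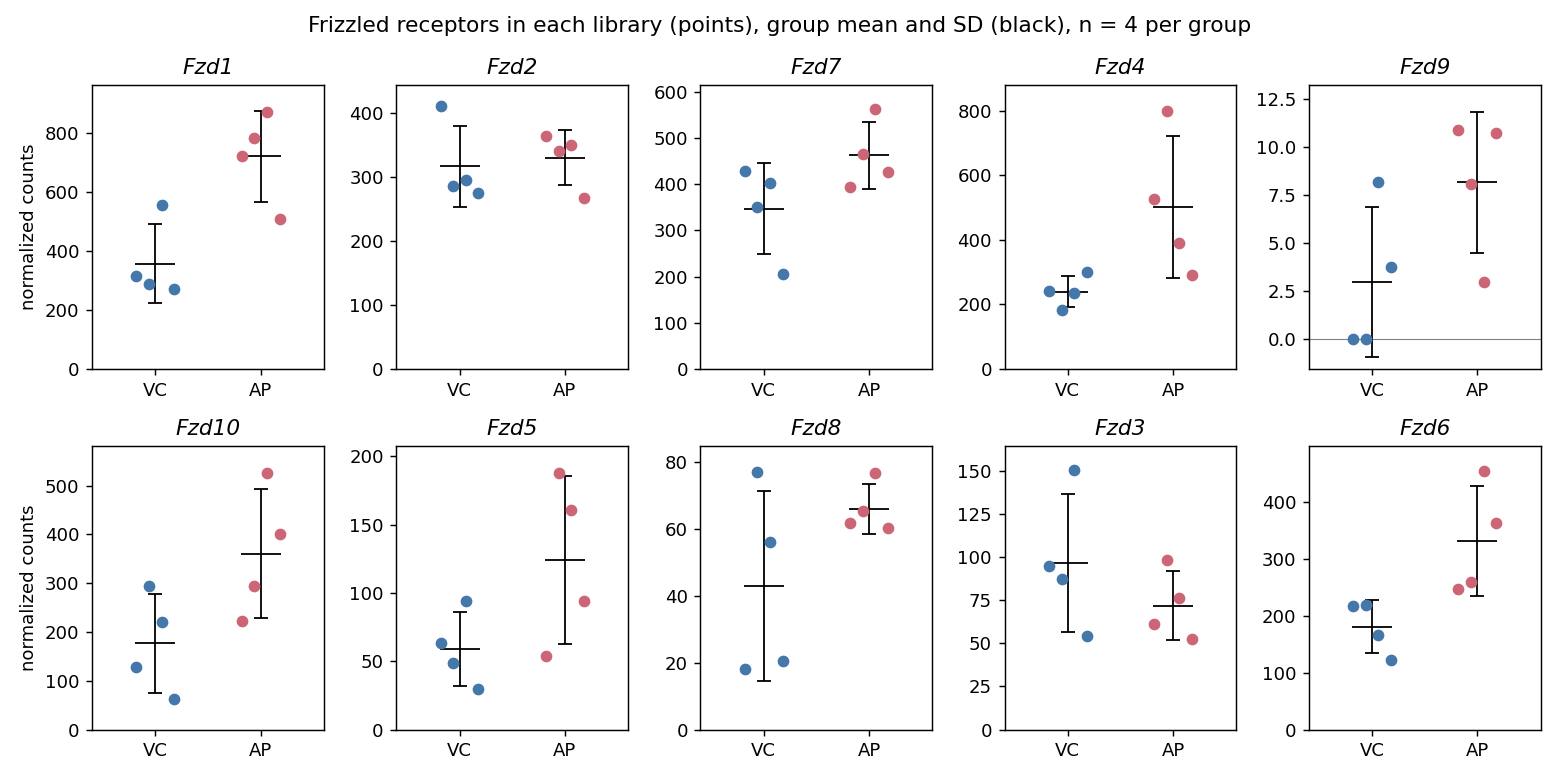
Normalized counts (vertical axes, a separate linear scale per panel) of the 10 receptors in the 4 VC (blue) and 4 AP (red) libraries; each point is 1 library, and the black marks show the group mean and SD. Fzd1 reached 873 in AP against at most 556 in VC, the highest Fzd2 library, at 411, was a VC library, and only Fzd3 had a lower mean in AP, a direction that turns with scaling by total counts.

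Fzd1, Fzd2 and Fzd7 form the subfamily of receptors that is best known for β-catenin signaling. Fzd1 was measured at 315, 288, 556 and 272 normalized counts in VC 1 to VC 4 and 722, 783, 873 and 510.0 in AP 1 to AP 4. AP 1 to AP 3 lay above every VC library, while AP 4 lay below VC 3, the library with the highest Fzd1 of its group. Fzd1 rose by a log2 fold change of 1.05 (SE 0.25, n = 4 per group; limma adjusted p = 0.0258), which is 2.07-fold with a 95% confidence interval of 1.43 to 2.999. The limma adjusted p was 0.0588 without VC 1, 0.0542 without VC 4, 0.0698 without AP 2 and 0.0881 without AP 3, so that the call rested on these libraries, and it was kept without each of the others.

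Fzd2, which lies in the same subfamily, did not pass the test. It was measured at 411, 287, 295 and 276 normalized counts in VC 1 to VC 4 and 364, 340.2, 350.3 and 267 in AP 1 to AP 4. VC 1 was the highest of all 8 libraries and AP 4 the lowest, and the other 6 lay between them. The log2 fold change of Fzd2 was 0.07 (SE 0.18, n = 4 per group), with a 95% confidence interval of -0.33 to 0.47, which does not reach the estimate for Fzd1. It was 0.01 to 0.20 (limma adjusted p of 0.468 to 0.985) with any 1 library left out. On the scale of normalized counts per kb, the log2 ratio of Fzd1 to Fzd2 within a library was -0.58, -0.19, 0.72 and -0.22 in VC 1 to VC 4, and 0.79, 1.01, 1.12 and 0.74 in AP 1 to AP 4. Every AP library thus held more Fzd1 than Fzd2 per unit of length, as did VC 3, whereas the other VC libraries held more Fzd2. This ratio needs no scaling between libraries.

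Fzd7, a receptor that is active in several epithelial stem cells, was measured at 429, 350.2, 403 and 206 normalized counts in VC 1 to VC 4 and 395, 464, 562 and 427 in AP 1 to AP 4. VC 4 was far the lowest and AP 3 the highest, and the other libraries overlapped. Its log2 fold change was 0.45 (SE 0.23, n = 4 per group; limma adjusted p = 0.209). The value was 0.22 without VC 4 (limma adjusted p = 0.413), and over all fits with 1 library left out it was 0.22 to 0.57 (limma adjusted p of 0.16 to 0.431).

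Fzd4, Fzd9 and Fzd10 form another subfamily. Fzd4 is the receptor for norrin as well as for Wnt ligands and is known for its part in the growth of blood vessels. It was measured at 240.1, 182, 236 and 300.003 normalized counts in VC 1 to VC 4 and 527, 799.6, 391 and 292 in AP 1 to AP 4. The AP libraries were spread widely, with AP 2 the highest of all 8 and AP 4 within the range of VC, where VC 4 was the highest. Fzd4 rose by a log2 fold change of 0.99 (SE 0.28, n = 4 per group; limma adjusted p = 0.0483), which is 1.98-fold with a 95% confidence interval of 1.29 to 3.04. This call stood close to the threshold. The limma adjusted p was 0.0888, 0.092, 0.0751 and 0.0534 without VC 1 to VC 4 in turn and 0.0778, 0.111 and 0.0926 without AP 1 to AP 3, and only without AP 4 was it under the threshold, at 0.0429. The limma adjusted p was also 0.0596 with limma-voom, 0.0563 with upper-quartile factors, 0.0505 with a pseudocount of 0.5, 0.0517 with no filter and 0.101 once a trend on exon length had been removed.

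Fzd10 was measured at 127, 294, 221 and 63.8 normalized counts in VC 1 to VC 4 and 222, 294, 526 and 401 in AP 1 to AP 4. VC 1 and VC 4 were low and AP 3 and AP 4 high, while AP 1 and AP 2 fell near VC 3 and VC 2. Its log2 fold change was 1.17 (SE 0.43, n = 4 per group; limma adjusted p = 0.0935). Fzd10 was inside the threshold in 2 of 21 alternatives, with scaling by total counts (limma adjusted p = 0.00547) and without VC 2 (0.0481). With any 1 library left out its log2 fold change was 0.76 to 1.49 (limma adjusted p of 0.0481 to 0.24), and the lowest value was the one without VC 4. An antisense gene, Fzd10os, ends 150 bases before Fzd10 begins and shares no exon base with it. Its log2 fold change was -0.48 (SE 0.36, n = 4 per group; limma adjusted p = 0.391), of the opposite sign to that of Fzd10.

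Fzd9 was the rarest receptor, with 0, 0, 6 and 2 reads in VC 1 to VC 4 and 15, 15, 6 and 15 reads in AP 1 to AP 4. A count of 0 allows up to 3 reads, which correspond to 5.46 normalized counts in VC 1 and 4.43 in VC 2, and this limit covers counting error only. The same 6 reads were worth 8.19 normalized counts in VC 3 and 2.99 in the deeper AP 3, so the groups overlapped. The log2 fold change of Fzd9 was 1.71 (SE 0.88, n = 4 per group; limma adjusted p = 0.21), and 1.26 to 2.33 (limma adjusted p of 0.0976 to 0.382) with any 1 library left out. In the main limma fit no difference was detectable at this depth. Of 19 alternatives, only scaling by total counts put Fzd9 inside the threshold (limma adjusted p = 0.037).

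Fzd5 and Fzd8 are close relatives with a high affinity for several Wnt ligands. Fzd5 was measured at 63.7, 48.8, 94.2 and 30.0003 normalized counts in VC 1 to VC 4 and 53.7, 188, 161 and 94.4 in AP 1 to AP 4. AP 2 and AP 3 were the highest of all libraries, AP 4 about equalled VC 3, and AP 1 lay inside the range of VC. Its log2 fold change was 1.02 (SE 0.44, n = 4 per group; limma adjusted p = 0.144), and 0.74 to 1.36 (limma adjusted p of 0.0521 to 0.333) with any 1 library left out. The annotated gene Gm38058 shares 1233 exon bases with Fzd5 on the opposite strand, and whether strand was counted is not stated in the labels.

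Fzd8 was measured at 18.2, 76.8, 56.0 and 20.6 normalized counts in VC 1 to VC 4 and 61.6, 65.2, 76.7 and 60.1 in AP 1 to AP 4. The AP libraries lay close together, whereas in VC the values of VC 1 and VC 4 were low, VC 3 lay just under AP and VC 2 was the highest of all. Its log2 fold change was 0.85 (SE 0.45, n = 4 per group; limma adjusted p = 0.223), and in VC 1 and VC 4 it rested on 10 and 11 reads. It was 0.54 without VC 1 and 0.60 without VC 4, and 0.54 to 1.21 (limma adjusted p of 0.0881 to 0.418) over all 8 such fits.

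Fzd3 and Fzd6 are the planar polarity receptors of the skin. Fzd6 was measured at 218, 219, 167 and 122 normalized counts in VC 1 to VC 4 and 248, 259.9, 455 and 364 in AP 1 to AP 4. Each AP library exceeded each VC library, though AP 1 and AP 2 did so by little, and AP 3 and AP 4 stood highest. The log2 fold change of Fzd6 was 0.86 (SE 0.25, n = 4 per group; limma adjusted p = 0.0516), just outside the threshold, and the exact permutation test gave its smallest possible p (two-sided p = 0.0286). Fzd6 was inside the threshold with edgeR (adjusted p = 0.0493) and DESeq2 (adjusted p = 0.0177), which put 3 of the 10 receptors, Fzd1, Fzd4 and Fzd6, among the higher genes. Of all tested genes, edgeR called 6.28% higher and DESeq2 10.5%. With limma it was inside the threshold with a pseudocount of 5 (adjusted p = 0.048), with reads drawn down to 1 depth (0.0493), with scaling by total counts (0.00113) and without AP 1 (0.0393). These were 6 of 21 alternatives, and it stayed outside in the other 15. Without VC 1 to VC 4 in turn the limma adjusted p of Fzd6 was 0.064, 0.0529, 0.0849 and 0.0965, and without AP 2 to AP 4 it was 0.0782, 0.158 and 0.131. Of its 4818 exon bases, 152 are shared with Gm26704 on the opposite strand.

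Fzd3 was the receptor whose mean was lower in AP. It was measured at 94.6, 87.2, 150.2 and 54.4 normalized counts in VC 1 to VC 4 and 60.9, 98.1, 76.2 and 52.2 in AP 1 to AP 4. VC 3 was the highest and VC 4 and AP 4 the lowest, and the groups overlapped throughout. The log2 fold change of Fzd3 was -0.37 (SE 0.33, n = 4 per group; limma adjusted p = 0.481), and it was 0.49 with scaling by total counts, below the shift of all genes under that scaling. With any 1 library left out it was -0.61 to -0.13 (limma adjusted p of 0.21 to 0.811), nearest to 0 without VC 3.

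**Figure D2:**
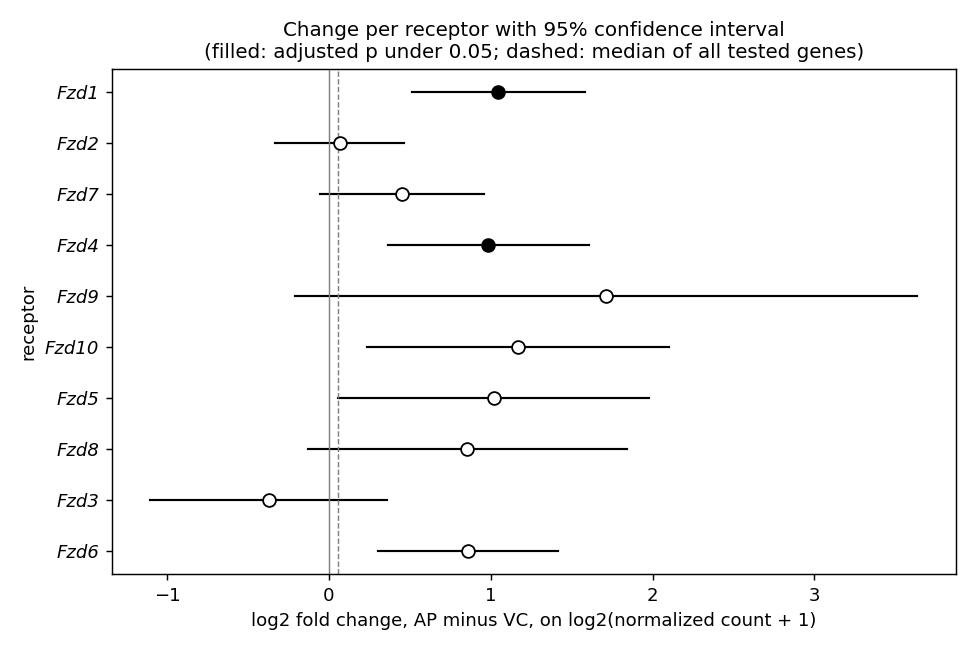
Log2 fold change, AP minus VC, on log2(normalized count + 1) (horizontal axis) of each receptor (vertical axis), with its 95% confidence interval as a line, filled points for the receptors at an adjusted p under 0.05, a solid line at 0 and a dashed line at the median of all tested genes. Fzd1 (1.05) and Fzd4 (0.99) are filled, the interval of Fzd9 is the widest of the 10, and Fzd3 (-0.37) is the only receptor left of 0, a sign that turns with scaling by total counts.

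Levels of different receptors were compared per kb of exon, since the union of exons ranges from 2293 bases for Fzd9 to 12804 for Fzd3. In VC the order of the means was Fzd2, Fzd1, Fzd7, Fzd10, Fzd6, Fzd4, Fzd5, Fzd3, Fzd8 and Fzd9. Fzd2 stood at 86.6 ± 17.2 normalized counts per kb (SD, n = 4), Fzd1 at 85.2 ± 31.7 and Fzd7 at 76.6 ± 21.96, and these levels overlapped across libraries. Below them, Fzd10 stood at 54.3 ± 31.3 normalized counts per kb, Fzd6 at 37.6 ± 9.67 and Fzd4 at 35.6 ± 7.19, where neighbours in the order overlapped again. A gap followed, since every VC library had more Fzd4 than any had of Fzd5, which stood at 8.56 ± 3.92 normalized counts per kb. Fzd3 at 7.54 ± 3.11, Fzd8 at 7.18 ± 4.76 and Fzd9 at 1.30 ± 1.70 normalized counts per kb closed the order, each overlapping with its neighbour.

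In AP the order was Fzd1, Fzd10, Fzd7, Fzd2, Fzd4, Fzd6, Fzd5, Fzd8, Fzd3 and Fzd9. Fzd1 stood at 172 ± 36.8 normalized counts per kb, ahead of Fzd10 at 111 ± 40.7 in 3 of 4 libraries. Fzd7 stood at 102 ± 16.005 normalized counts per kb, Fzd2 at 90.2 ± 11.9, Fzd4 at 74.7 ± 32.8 and Fzd6 at 68.9 ± 20.2, and all neighbours among the first 6 overlapped. As in VC, the 6 abundant receptors stood clear of the 4 rare ones, for every AP library had more Fzd6 than any had of Fzd5, at 18.0 ± 8.88 normalized counts per kb. Fzd8 at 11.04 ± 1.26 normalized counts per kb lay above Fzd3 at 5.61 ± 1.57 with no overlap, and Fzd9 came last at 3.56 ± 1.61.

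The rank differed between the groups for 7 of the 10 receptors, and Fzd5, Fzd7 and Fzd9 kept theirs. Fzd2 went from rank 1 to rank 4, Fzd10 from rank 4 to rank 2 and Fzd1 from rank 2 to rank 1, while Fzd3 and Fzd8 exchanged places, as did Fzd4 and Fzd6. Since neighbours mostly overlapped, these steps describe the means and were not tested. Without VC 1 or without VC 2, 4 receptors differed in rank. With coding length in place of exon length, Fzd7 led in VC and Fzd1 in AP, and with no division by length Fzd1 led in both groups.

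Against all genes, the leading receptors were of upper middle abundance. Per kb, Fzd1 exceeded 77.7% of the 15964 tested genes in VC and 89.4% in AP, Fzd2 exceeded 78.1% and 78.9%, and Fzd10 exceeded 67.9% and 83.1%. Fzd9 exceeded 3.55% of the tested genes in VC and 10.7% in AP. The median level of a tested gene was 26.7 normalized counts per kb in VC and 29.0 in AP, so that Fzd3, Fzd5, Fzd8 and Fzd9 lay below it in both groups.

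The make-up of the family was described by the share of each receptor in the summed normalized counts per kb of its library. Fzd1 made up 21.1% ± 5.06 in VC and 26.1% ± 3.29 in AP (SD, n = 4 per group). Its share was 17.8, 16.6, 27.7 and 22.4% in VC 1 to VC 4 and 29.4, 26.9, 26.5 and 21.6% in AP 1 to AP 4, so that VC 3 and VC 4 lay within the range of AP. Fzd2 made up 22.1% ± 4.96 in VC and 13.9% ± 2.15 in AP. Its share was 26.6, 18.9, 16.8 and 26.1% in VC 1 to VC 4 and 17.02, 13.4, 12.2 and 12.9% in AP 1 to AP 4, where AP 1 and VC 3 were the libraries that overlapped. The share of Fzd3 was small in both groups, at 1.83% ± 0.432 in VC and 0.850% ± 0.173 in AP. It was 1.75, 1.65, 2.45 and 1.47% in VC 1 to VC 4 and 0.815, 1.10, 0.758 and 0.724% in AP 1 to AP 4, and it was the only share of the 10 whose groups did not overlap.

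The other shares overlapped between the groups. Fzd7 made up 18.9% ± 2.75 in VC and 15.5% ± 0.915 in AP, Fzd10 13.0% ± 6.64 in VC and 16.8% ± 5.18 in AP, and Fzd4 9.46% ± 4.08 in VC and 11.4% ± 4.71 in AP. Fzd6 made up 9.43% ± 1.77 in VC and 10.5% ± 2.65 in AP, Fzd5 2.06% ± 0.5995 in VC and 2.66% ± 1.08 in AP, Fzd8 1.75% ± 1.04 in VC and 1.69% ± 0.103 in AP and Fzd9 0.328% ± 0.386 in VC and 0.579% ± 0.313 in AP. By subfamily, Fzd1, Fzd2 and Fzd7 together took 62.1% ± 5.51 in VC and 55.5% ± 4.24 in AP of the family total, and Fzd4, Fzd9 and Fzd10 took 22.8% ± 4.36 in VC and 28.8% ± 2.22 in AP. Fzd3 and Fzd6 took 11.3% ± 1.51 in VC and 11.4% ± 2.51 in AP, and Fzd5 and Fzd8 took 3.81% ± 1.16 in VC and 4.35% ± 0.992 in AP. The balance of the subfamilies thus overlapped between VC and AP, with the β-catenin subfamily the largest in every library.

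**Figure D3:**
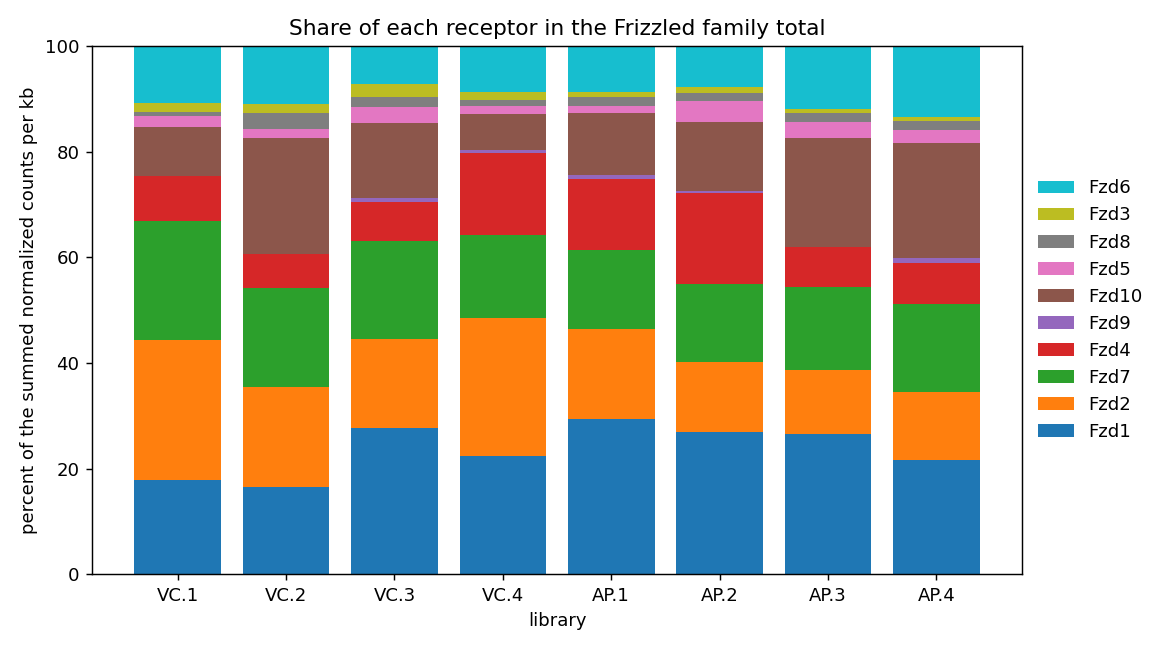
Share of each receptor in the family total, in percent of the summed normalized counts per kb of exon (vertical axis, from 0 to 100), as 1 stacked bar for each of the 8 libraries (horizontal axis), ordered by subfamily. Fzd2 (orange) spans 16.8% to 26.6% in VC and 12.2% to 17.02% in AP, and Fzd1 (blue), at most 27.7% in VC, reaches 29.4% in AP.

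The receptors varied among themselves over the 8 libraries. By the root-mean-square difference of log2 values centred on each gene's mean, the closest pair was Fzd6 and Fzd7, at 0.32, followed by Fzd2 and Fzd7, at 0.34. Fzd8 and Fzd10 were each other's nearest receptor at 0.44, both being low in VC 1 and VC 4, and Fzd1 was nearest to Fzd7, also at 0.44. Fzd4 and Fzd5 were nearest to Fzd1, at 0.47 and 0.50, Fzd3 was nearest to Fzd2 at 0.47, and Fzd9 was nearest to Fzd1 at 1.09. Among the 11248 other genes with a mean of at least 50 normalized counts, the 5 whose profile lay nearest to that of the family total were Son, at 0.04, and Serinc5, Xrn1, Ankle2 and Ncoa3, at 0.11. Son was measured at 848, 820.2, 922 and 546 normalized counts in VC 1 to VC 4 and 1125, 1373, 1528 and 1182 in AP 1 to AP 4. The gene nearest to Fzd2, the receptor with the largest share in VC, was Dennd1a at 0.08, and the gene nearest to Fzd1, the one with the largest share in AP, was Rtn4rl1 at 0.18.

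Counts for the genes around the receptors stand beside the same shares of all tested genes. These were 6.33% higher and 4% lower with limma, 6.28% and 4.46% with edgeR, 10.5% and 8.53% with DESeq2. At an unadjusted limma p under 0.05 they were 17% and 13.3%. Among the co-receptors that Frizzled proteins work with, 1 of 10 passed the test with limma and 1 with edgeR, while 4 were higher with DESeq2 and 4 at an unadjusted limma p under 0.05. The log2 fold change was above 0 for 9 of them, with a median of 0.57. Lrp5, which pairs with Frizzled in β-catenin signaling, was measured at 255, 329.5, 341 and 311 normalized counts in VC 1 to VC 4 and 517, 889, 760.3 and 675 in AP 1 to AP 4. The lowest AP library exceeded the highest VC library. Lrp5 rose by a log2 fold change of 1.18 (SE 0.19, n = 4 per group; limma adjusted p = 0.00884) and kept its call in all 21 alternatives run. Its partner Lrp6 had a log2 fold change of 0.63 (SE 0.20, n = 4 per group; limma adjusted p = 0.0619). The most abundant member per kb over the 8 libraries was Ryk, a Wnt receptor of the tyrosine kinase type, at 221 ± 9.30 normalized counts per kb in VC and 209 ± 12.7 in AP, with a log2 fold change of -0.08 (SE 0.13, n = 4 per group; limma adjusted p = 0.693).

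Of the 12 genes that control how much Frizzled stays at the cell surface, 3 were lower with limma, and all 3 were R-spondins, secreted proteins that protect Frizzled from the ubiquitin ligases Rnf43 and Znrf3. Rspo1, the most abundant of the list per kb in VC, was measured at 213, 327, 395 and 283 normalized counts in VC 1 to VC 4 and 120.4, 71.7, 136 and 107 in AP 1 to AP 4. Every AP library lay below every VC library, and in AP the highest mean per kb of the list was that of Apcdd1. Rspo1 fell, with a log2 fold change of -1.48 (SE 0.25, n = 4 per group; limma adjusted p = 0.0103), as did Rspo3 with -1.45 (SE 0.32, n = 4 per group; limma adjusted p = 0.0212) and Rspo4 with -1.34 (SE 0.35, n = 4 per group; limma adjusted p = 0.0356). The call of Rspo3 was lost without AP 2 (limma adjusted p = 0.0591), AP 3 (0.0633) or AP 4 (0.0614). With scaling by total counts, which moves the median of all genes to 0.90, the log2 fold changes of Rspo1, Rspo3 and Rspo4 were -0.61, -0.58 and -0.50, still below that median, and tested against 0 their limma adjusted p was 0.126, 0.217 and 0.251. The call of Rspo4 was also lost without VC 1 (limma adjusted p = 0.0531), VC 3 (0.051), VC 4 (0.0718), AP 2 (0.0653), AP 3 (0.114) or AP 4 (0.0817), with reads drawn down to 1 depth (0.0626) and with the length trend removed (0.0523). The ligases themselves had log2 fold changes of 0.38 (SE 0.37, n = 4 per group; limma adjusted p = 0.527) for Rnf43 and 1.48 (SE 0.69, n = 4 per group; limma adjusted p = 0.173) for Znrf3. The median of the 12 genes was 0.36. In this list edgeR called 3 lower, DESeq2 called 4 lower and 1 higher, and at an unadjusted p under 0.05 there were 4 lower and 2 higher.

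Among the ligands, 17 of 20 listed genes were in the table (Wnt1, Wnt7a and Wnt8b were not) and 16 were tested, of which 2 were higher and 1 was lower with limma and with edgeR, and 3 higher and 1 lower with DESeq2 and at an unadjusted p under 0.05. Their median was 0.38. Ndp, which encodes norrin, the ligand of Fzd4, was measured at 106, 85.7, 102 and 45.0 normalized counts in VC 1 to VC 4 and 15.2, 20.49, 24.9 and 22.2 in AP 1 to AP 4. All AP libraries were below all VC libraries, while Fzd4 itself rose. Ndp fell with a log2 fold change of -1.93 (SE 0.36, n = 4 per group; limma adjusted p = 0.013) and kept its call in all 21 alternatives. Wnt7b, a ligand made by follicle and epidermal keratinocytes, was measured at 63.7, 87.2, 113 and 39.4 normalized counts in VC 1 to VC 4 and 168, 139, 343 and 459.9 in AP 1 to AP 4, and Wnt11, a ligand known for polarity signaling, at 56.4, 31.0, 43.7 and 58.1 normalized counts in VC 1 to VC 4 and 82.0, 123, 152 and 80.1 in AP 1 to AP 4. Both were higher in each AP library than in any VC library, with AP 3 and AP 4 the highest for Wnt7b and AP 2 and AP 3 for Wnt11. Wnt7b rose by a log2 fold change of 1.79 (SE 0.42, n = 4 per group; limma adjusted p = 0.0253) and Wnt11 by 1.18 (SE 0.32, n = 4 per group; limma adjusted p = 0.0386). The call of Wnt7b was lost without VC 1 (limma adjusted p = 0.057), VC 4 (0.0501), AP 3 (0.0871) or AP 4 (0.0754), and that of Wnt11 without any 1 library other than VC 4 and AP 1 (limma adjusted p of 0.0512 to 0.136). With limma-voom the adjusted p was 0.064 for Wnt7b and 0.0571 for Wnt11, and with the length trend removed limma gave Wnt11 an adjusted p of 0.0505. The most abundant ligand in VC was Wnt4, at 116 ± 38.8 normalized counts per kb, beside 105 ± 36.3 in AP, where Wnt10a had the highest mean, at 129.8 ± 56.5 normalized counts per kb. Of the Wnt secretion genes Wls and Porcn, neither passed the test with limma, edgeR or DESeq2 or at an unadjusted p under 0.05, and Wls, the more abundant, had a log2 fold change of 0.21 (SE 0.14, n = 4 per group; limma adjusted p = 0.341).

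The secreted antagonists that carry a Frizzled-like domain, Sfrp1, Sfrp2, Sfrp4, Sfrp5 and Frzb, included 0 genes called by limma at an adjusted p under 0.05, with 3 at an unadjusted p under 0.05, Sfrp5 (log2 fold change 1.28) and Frzb (-0.80), besides Sfrp1 (0.62), and by edgeR 0 and by DESeq2 1 gene was called. Sfrp1, the most abundant of them per kb, was above VC in every AP library, at 348 ± 74.1 normalized counts (SD, n = 4) in VC and 537 ± 116 in AP, with a log2 fold change of 0.62 (SE 0.20, n = 4 per group; limma adjusted p = 0.062). Of the other Wnt antagonists, 9 of 10 listed genes were in the table (Dkk4 was not) and 8 were tested, with 1 higher and 1 lower by limma and by edgeR, 1 higher and 2 lower by DESeq2, 2 higher and 2 lower at an unadjusted p under 0.05, and a median of -0.43, or 0.36 with scaling by total counts. Wif1, which binds Wnt ligands, fell from 429 ± 85.8 to 194 ± 103 normalized counts, with a log2 fold change of -1.24 (SE 0.30, n = 4 per group; limma adjusted p = 0.0282). Kremen1, a receptor for Dickkopf proteins, rose by a log2 fold change of 0.85 (SE 0.23, n = 4 per group; limma adjusted p = 0.0386). Both calls were lost without any 1 of 5 libraries, which for Wif1 were VC 2 to VC 4, AP 2 and AP 4 (limma adjusted p of 0.0513 to 0.0806) and for Kremen1 VC 1, VC 2 and AP 2 to AP 4 (0.0612 to 0.117). The limma adjusted p of Wif1 was 0.396 against 0 with scaling by total counts (log2 fold change -0.37) and 0.0553 with the length trend removed, and that of Kremen1 was 0.0515 with total counts outside mitochondrial genes, 0.0523 with reads drawn down and 0.0922 with the length trend removed. Wif1 had the highest mean per kb of these antagonists in VC and Sostdc1 in AP. Sostdc1 had a log2 fold change of 0.68 (SE 0.27, n = 4 per group; limma adjusted p = 0.122).

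Inside the cell, 1 of 11 genes of Dishevelled and the β-catenin destruction complex passed the test with limma and 1 with edgeR, 2 were higher with DESeq2, and 2 were higher and 1 lower at an unadjusted p under 0.05. The gene called by limma was Gsk3b, the kinase that marks β-catenin for breakdown, with 339 ± 47.4 normalized counts (SD, n = 4) in VC and 522 ± 76.6 in AP, and a log2 fold change of 0.62 (SE 0.17, n = 4 per group; limma adjusted p = 0.0414). With limma-voom the adjusted p was 0.0538, and with limma it was 0.0505 with total counts outside mitochondrial genes and 0.191 with the length trend removed. The call was also lost without VC 1, VC 2, VC 4, AP 2, AP 3 or AP 4 (limma adjusted p of 0.069 to 0.131). Ctnnb1, which encodes β-catenin, was the most abundant of the list at 839 ± 75.5 normalized counts per kb in VC and 870.0 ± 93.8 in AP, with a log2 fold change of 0.05 (SE 0.17, n = 4 per group; limma adjusted p = 0.865). Among 8 nuclear partners of β-catenin, 1 was higher with each of limma, edgeR and DESeq2, and at an unadjusted p under 0.05 there were 1 higher and 1 lower. The gene called by limma was Bcl9l, a co-activator, with a log2 fold change of 1.02 (SE 0.23, n = 4 per group; limma adjusted p = 0.023), a call that was lost without AP 2, AP 3 or AP 4 (limma adjusted p of 0.0629 to 0.0764) and with the length trend removed (0.0609). Lef1 had a log2 fold change of -0.65 (SE 0.34, n = 4 per group; limma adjusted p = 0.217), and Pygo2, the most abundant partner per kb, one of -0.12 (SE 0.15, n = 4 per group; limma adjusted p = 0.626).

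Of 13 genes that Wnt signaling is known to induce, 12 were tested and 2 were lower with limma, 2 with edgeR and 3 with DESeq2, and 3 at an unadjusted p under 0.05. The median was -0.06, or 0.79 with scaling by total counts, and 0 were called higher by limma, edgeR or DESeq2. The 2 called by limma were Nkd1 and Nkd2, inhibitors that bind Dishevelled. Nkd2 was measured at 473, 349, 527 and 469 normalized counts in VC 1 to VC 4 and 210.3, 236, 290.5 and 193 in AP 1 to AP 4, and every AP library was below every VC library. Nkd2 fell with a log2 fold change of -0.96 (SE 0.19, n = 4 per group; limma adjusted p = 0.0151), and Nkd1 with -0.75 (SE 0.19, n = 4 per group; limma adjusted p = 0.0342). The call of Nkd2 was lost without AP 4 (limma adjusted p = 0.0507) and, against 0, with scaling by total counts (0.741, log2 fold change -0.10), and that of Nkd1 without VC 1, VC 3, VC 4, AP 2, AP 3 or AP 4 (limma adjusted p of 0.0513 to 0.107), and with reads drawn down to 1 depth (0.0721). With scaling by total counts the sign of Nkd1 turned, to a log2 fold change of 0.11. At an unadjusted p under 0.05, 1 target, Myc, was higher (log2 fold change 0.95). Axin2, a widely used readout of β-catenin signaling, had a log2 fold change of 0.17 (SE 0.21, n = 4 per group; limma adjusted p = 0.606), and Ccnd1, the most abundant target per kb, one of -0.43 (SE 0.14, n = 4 per group; limma adjusted p = 0.0722).

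Of 9 partners of Frizzled in planar polarity, 8 were tested and 2 were higher with limma, 1 with edgeR, 3 with DESeq2 and 4 at an unadjusted p under 0.05, with a median of 0.70. Celsr1, the cadherin that recruits Fzd6 to cell borders in the epidermis, was measured at 175, 231, 276 and 54.4 normalized counts in VC 1 to VC 4 and 432, 507, 689.6 and 707 in AP 1 to AP 4. No AP library was as low as any VC library, of which VC 4 was the lowest. VC 4 was the lowest VC library for Fzd6 too, but also for Fzd1, Fzd7, Fzd10 and the Frizzled family total, so this is not particular to Celsr1 and Fzd6. Celsr1 rose by a log2 fold change of 1.86 (SE 0.42, n = 4 per group; limma adjusted p = 0.0236) and its relative Celsr2 by 1.18 (SE 0.34, n = 4 per group; limma adjusted p = 0.0485). The call of Celsr1 was lost without AP 2, AP 3 or AP 4 (limma adjusted p of 0.0536 to 0.0764), and that of Celsr2 in 13 of 21 alternatives, among them edgeR (adjusted p = 0.0582) and each of VC 1, VC 4, AP 2, AP 3 and AP 4 left out (limma adjusted p of 0.0822 to 0.14). Prickle3, the most abundant partner per kb, had a log2 fold change of -0.16 (SE 0.20, n = 4 per group; limma adjusted p = 0.612). Smo, the Hedgehog transducer that belongs to the same receptor class as the Frizzled proteins, had one of 0.28 (SE 0.16, n = 4 per group; limma adjusted p = 0.254).

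Markers of cell types differed between the groups as well. Their counts stand beside shares of all tested genes of 6.33% higher and 4% lower with limma, 6.28% and 4.46% with edgeR, 10.5% and 8.53% with DESeq2. At an unadjusted p under 0.05 the shares were 17% and 13.3%. Of 15 markers of suprabasal keratinocytes, a cell type of the epidermis, 12 were higher with limma, 12 with edgeR and 14 with DESeq2 and at an unadjusted p under 0.05, with a median of 3.001. Their summed level was 6183, 12919, 8961 and 5704 normalized counts in VC 1 to VC 4 and 44709.8, 41929.6, 124298 and 174078 in AP 1 to AP 4, so that each AP library lay above each VC library, AP 3 and AP 4 by the most. None of these markers was at 0 reads throughout VC, and the most abundant, Krt10, had 2376 ± 1207 normalized counts (SD, n = 4) in VC and 38536 ± 27358 in AP. Of 10 markers of basal keratinocytes, 5 were higher with limma, 4 with edgeR, 5 with DESeq2 and 7 at an unadjusted p under 0.05, with a median of 1.07. Their summed level was 30324, 85248, 54535 and 25928 normalized counts in VC 1 to VC 4 and 59163, 58139, 108377 and 151724 in AP 1 to AP 4, where the groups overlapped and VC 2 was the highest of VC. Krt14, the most abundant of them, had a log2 fold change of 1.02 (SE 0.53, n = 4 per group; limma adjusted p = 0.212). Fzd6 and Fzd10 were likewise highest in AP 3 and AP 4, and Fzd10 was highest of VC in VC 2. The part of keratinocyte content in the changes of the receptors was not tested.

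Of 10 endothelial markers, 3 were higher with limma and 3 with edgeR, but 7 with DESeq2 and 9 at an unadjusted p under 0.05, with a median of 1.41. Their summed level was 1259, 1377, 2596 and 2479 normalized counts in VC 1 to VC 4 and 4013, 9217, 3237 and 3765 in AP 1 to AP 4. Each AP library exceeded every VC library, AP 2 far above the others, and AP 2 was also the library with the most Fzd4, as it was for Fzd5. In the other libraries the levels did not run in parallel. AP 1 and AP 4 had similar sums, while Fzd4 was at 527 in AP 1 and 292 in AP 4. From VC 1 to VC 3 the sum went from 1259 to 2596, while Fzd4 was at 240.1 and 236. Cldn5, the most abundant of these markers per kb, had a log2 fold change of 0.85 (SE 0.29, n = 4 per group; limma adjusted p = 0.0783). Of 8 markers of smooth muscle and pericytes, 3 were higher with limma, 3 with edgeR and 4 with DESeq2, and 6 were higher and 1 lower at an unadjusted p under 0.05, with a summed level of 4537, 6963, 5398 and 5850.1 normalized counts in VC 1 to VC 4 and 9709, 9375, 4233 and 5432 in AP 1 to AP 4. Their median was 1.07, with 7 of the 8 above 0. Des, which had the highest mean per kb in VC, was the 1 marker below 0, with a log2 fold change of -1.33 (SE 0.50, n = 4 per group; limma adjusted p = 0.105). It was at 2898, 5217, 2738 and 3206 normalized counts in VC 1 to VC 4 and 4765, 1058, 596 and 1105 in AP 1 to AP 4. That exceeded every other marker of the list in each VC library and in AP 1, so the summed level does not describe the 7 others. Like the skeletal muscle markers below, Des was low in AP 2 to AP 4 but not in AP 1. Acta2, which led in AP, had one of 1.196 (SE 0.28, n = 4 per group; limma adjusted p = 0.0258). The part of vessel content in the change of Fzd4 was not tested.

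Of 10 dermal papilla markers, 4 were lower with limma, 5 with edgeR, 6 with DESeq2 and 6 at an unadjusted p under 0.05, with a median of -0.90, or -0.04 with scaling by total counts, and Rspo3, which is one of them, was also among the R-spondins that fell. Their summed level was 2676, 2609.7, 3429 and 3720.0 normalized counts in VC 1 to VC 4 and 1348, 1329, 1758 and 1309.6 in AP 1 to AP 4, each AP library below each VC library. In VC the most abundant of them per kb was Crabp1, at 471, 535, 602 and 2254 normalized counts in VC 1 to VC 4. VC 4 stood far above the others. In AP the most abundant was Sox18. Crabp1 had a log2 fold change of -2.17 (SE 0.44, n = 4 per group; limma adjusted p = 0.0167). Of 7 melanocyte markers, 4 were lower with limma, 4 with edgeR, 5 with DESeq2 and 5 at an unadjusted p under 0.05, with a median of -0.83, or 0.04 with scaling by total counts, and the most abundant, Pmel, had a log2 fold change of -1.35 (SE 0.38, n = 4 per group; limma adjusted p = 0.0462). Their summed level was 4473, 3458, 3994 and 1603 normalized counts in VC 1 to VC 4 and 1441, 1667, 2162 and 1247 in AP 1 to AP 4, with VC 4 among the AP libraries. The part of dermal papilla and melanocyte content in the levels of the receptors and their ligands was not tested.

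Of 10 skeletal muscle markers, 1, Tnnc2, was lower with limma, 0 with edgeR and 0 with DESeq2, and 8 were lower at an unadjusted p under 0.05, with a median of -1.72 and a summed level of 59913, 85368, 43697 and 45608 normalized counts in VC 1 to VC 4 and 85103, 11327, 6603 and 13944 in AP 1 to AP 4, so that AP 1 stood with VC. The most abundant, Acta1, had a log2 fold change of -1.92 (SE 0.61, n = 4 per group; limma adjusted p = 0.0628). Of 8 Schwann cell markers, 2 were lower with limma, edgeR and DESeq2, and 2 were lower and 1 higher at an unadjusted p under 0.05, with a median of -0.39, or 0.47 with scaling by total counts, and Pmp22, the most abundant per kb in VC, had a log2 fold change of 0.40 (SE 0.23, n = 4 per group; limma adjusted p = 0.258). Of 5 red blood cell genes, 1 was higher with limma and edgeR, 1 was higher and 1 lower with DESeq2 and at an unadjusted p under 0.05, and limma called Hbb-bs, the most abundant per kb in AP, with a log2 fold change of 1.24 (SE 0.28, n = 4 per group; limma adjusted p = 0.0231). In VC it was Hba-a1. By limma, 0 genes were called among 9 tested markers of the hair follicle matrix, inner root sheath and shaft, 10 of fibroblasts, 8 of adipocytes and 10 of leukocytes. At an unadjusted p under 0.05 these lists held 3, 3, 2 and 4 genes, edgeR called 1, 0, 0 and 0 of them, and DESeq2 called 1, 1, 0 and 2. The follicle list mixes compartments, so its median of -0.16 describes none of them. Of its inner root sheath genes, Krt71 had a log2 fold change of 2.01, Krt25 0.99 and Gata3 -0.16. Of its matrix and shaft genes, Shh had -0.73, Msx2 -0.64, Krt35 -0.60, Hoxc13 -0.28, Foxn1 1.59 and Krt31 2.23. The medians were 0.35 for fibroblasts, 0.07 for adipocytes and -0.43 for leukocytes. With scaling by total counts the medians of the follicle and the leukocyte lists were 0.71 and 0.44. By mean level per kb over the 8 libraries, the leading genes of the 4 lists were Krt71, with a log2 fold change of 2.01 (SE 0.61, n = 4 per group; limma adjusted p = 0.0575), Col1a1 with 0.63 (SE 0.51, n = 4 per group; limma adjusted p = 0.428), Cidec with -0.36 (SE 0.49, n = 4 per group; limma adjusted p = 0.649) and Lyz2 with -1.08 (SE 0.37, n = 4 per group; limma adjusted p = 0.0786). Within a group the lead differed. Krt25 led the follicle list in VC. Fabp4 and Cd74 led the adipocyte and leukocyte markers in AP. Reads of Krt71, Crabp1 and Col1a1, markers of follicle, dermal papilla and dermis, were present in all libraries. Of 13 mitochondrially encoded genes, 12 were tested and 10 were lower with limma, 12 with edgeR and DESeq2 and 11 at an unadjusted p under 0.05, with a median of -3.38, and mt-Co1, the most abundant, had a log2 fold change of -3.37 (SE 1.603, n = 4 per group; limma adjusted p = 0.18).

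The genes of the family differ in structure. In GENCODE M21 (GRCm38), Fzd1, Fzd2, Fzd7, Fzd8, Fzd9 and Fzd10 each consist of 1 exon, while Fzd4 has 2 and Fzd5, Fzd3 and Fzd6 have 4, 9 and 16 distinct exons over all their transcripts. Fzd1 lies at chr5:4753839-4758035 on the minus strand, with 1926 coding bases among its 4197. Fzd2 lies at chr11:102604396-102608058 on the plus strand, Fzd4 at chr7:89404355-89413134 on the plus strand and Fzd6 at chr15:39006034-39038188 on the plus strand. Fzd1, Fzd9 and Fzd10 share chromosome 5 and Fzd5 and Fzd7 chromosome 1. No 50-base stretch of any receptor transcript occurs in another receptor, and for Fzd3 and Fzd4 0.0941% and 0.120% of such stretches occur in transcripts of other genes.

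Promoter sequences from RefSeq (GRCm38.p6), 250 bases before to 50 after the start of transcription, were matched for 6 of the 10 receptors, Fzd1, Fzd4, Fzd5, Fzd7, Fzd9 and Fzd10. Their median G and C content was 74.2%, beside 52.7% over 32851 promoters of the same length, and they held a median of 35 CG dinucleotides beside 7. Fzd1 was the exception, at 54% and 16 CG. Motifs were searched on both strands, and matches to 1 motif may overlap. The TATA box, TATAAA, occurs in 1 of the 6, Fzd1, and in 13.6% of all promoters. The GC box, GGGCGG, occurs in 5 of the 6, all but Fzd1, and in 35.7% of all promoters, and the CCAAT box, CCAAT, in Fzd4, Fzd5 and Fzd7 and in 37.4%. A Tcf and Lef motif, searched as the word CTTTGAA or the word CTTTGAT or the word CTTTGTA or the word CTTTGTT, occurs in Fzd7 and in 16.9% of all promoters. The promoters of the 2 receptors that rose are printed here because they differ in make-up, at chr5:4758167-4758466 on the minus strand for Fzd1, which lies 131 bases outside the GENCODE gene, and at chr7:89404116-89404415 on the plus strand for Fzd4, of which 61 bases lie inside it. Capitals mark matches to any of the motifs, which are a TATA box in Fzd1 and GC boxes and a CCAAT box in Fzd4. A match describes the letters only.
Fzd1 promoter: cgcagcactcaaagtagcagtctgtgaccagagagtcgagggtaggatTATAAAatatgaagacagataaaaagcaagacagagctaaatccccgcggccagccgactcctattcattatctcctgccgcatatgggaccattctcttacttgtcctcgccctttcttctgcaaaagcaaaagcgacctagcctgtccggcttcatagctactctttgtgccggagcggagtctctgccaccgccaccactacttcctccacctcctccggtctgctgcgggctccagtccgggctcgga
Fzd4 promoter: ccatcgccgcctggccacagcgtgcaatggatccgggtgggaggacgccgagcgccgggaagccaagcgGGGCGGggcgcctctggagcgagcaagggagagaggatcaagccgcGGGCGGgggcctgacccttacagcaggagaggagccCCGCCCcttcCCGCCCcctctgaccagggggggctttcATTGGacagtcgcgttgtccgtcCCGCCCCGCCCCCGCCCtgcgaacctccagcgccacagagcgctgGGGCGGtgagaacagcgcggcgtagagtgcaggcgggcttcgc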

How the data were processed

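The deposited table gives normalized counts (signal), which the authors made by aligning reads to mm10 and dividing by DESeq2 size factors. The log2 fold changes, the Wald score and the p-values deposited by the authors hold their own comparison and were not used. Reads were recovered by multiplying with each library's size factor, taken from the values, and 150160 of 150160 values were whole within 0.01 reads. Genes that reached 3 normalized counts in 4 or more of the 8 libraries were tested on log2(normalized count + 1) with limma 3.58.1 in R 4.3.3, with a variance trend and Benjamini-Hochberg adjustment over 15964 genes, and called at an adjusted p under 0.05. Alternatives used edgeR 4.0.16, DESeq2 1.42.0, other scalings, pseudocounts, filters and each library left out. Lengths are the union of exons in GENCODE M21. The receptors and gene lists were chosen with earlier results of these data known. Genes named are all receptors, called pathway genes, the most abundant gene per list and nearest profiles; other named genes were chosen after their values were seen. The fit was tested on simulated data.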

Additional observations from a re-analysis of the deposited data

Results flagged for a closer look

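In the 4 VC libraries, 2 receptors had a highest library far from the other 3, judged by the gap to the nearest value divided by the range of the group. For Fzd1 this was VC 3, with 556 normalized counts and a gap ratio of 0.849. For Fzd2 it was VC 1, with 411 normalized counts and a gap ratio of 0.857. In all, 44 groups of libraries were examined in this way, and chance alone singles out about 1 in 20 groups.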

How the results depend on the processing

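The count of 2 higher receptors was 1 with limma-voom, with upper-quartile factors, with a pseudocount of 0.5, with no filter and with the length trend removed. It was 3 with edgeR, with DESeq2, with a pseudocount of 5 and with reads drawn down to 1 depth, and 9 with scaling by total counts. With 1 library left out in turn it ranged from 0 to 2. Among all genes, 1011 were higher and 639 lower with limma, against 1677 and 1362 with DESeq2 and 8657 and 70 with total counts, and with 1 library left out the counts ranged from 209 to 1082 higher and from 94 to 817 lower. Of the called genes, 61.3% were higher, beside 99.2% with total counts, 49.7% with limma-voom and 72.0% without AP 2. With total counts the log2 fold change of Fzd3 turned to 0.49 and that of Nkd1 to 0.11. The number of receptors that differed in rank went from 4 to 8 with 1 library left out, and the share of Fzd2 in AP was 11.2% when values were not divided by length. For each of these the cause was not tested. Of 208 log2 fold changes of the receptors under the alternatives, 178 kept their direction and side of the threshold, and of 336 values of shares and share differences, the shares of Fzd2 left out, 319 moved by less than 1 SD and the 17 others moved by more with another choice of length. Alternatives for the called genes of the pathway were chosen after seeing the data. No paired analysis was possible because the replicate numbers are not shared between the groups and the columns are not tied to mice. In VC, Fzd9 had at most 6 reads and Fzd8 10 to 52.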

Other observations

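The study lists a primer pair for Fzd1, the receptor with the lowest limma adjusted p here, and it was placed on the GENCODE M21 transcripts. The reverse primer lies in the coding part of Fzd1 at chr5:4756510-4756529 and matches 1 gene exactly. The forward primer as listed, of 21 bases, has no exact match in any transcript. With 1 base left out, a version of 20 bases matches Fzd1 at chr5:4756668-4756687, and the product with the reverse primer is then 178 bases. The sequences are shown because they place the pair on the gene, with the version of 20 bases last.
Fzd1 forward primer as listed: caaggtttacggggctcatgt
Fzd1 reverse primer: gtaacagccggacaggaaaa
Fzd1 forward primer with 1 base left out: caaggtttacgggctcatgt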
